A study of Homo sapiens with 6 samples.

Results

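The 10 genes described here belong to the NF-kappa B pathway: the subunits NFKB1, NFKB2, RELA and RELB, the feedback genes NFKBIA, NFKBIE, TNFAIP3, BIRC3 and ICAM1, and the upstream kinase IRAK1. They were taken by symbol from the 22077 symbols of the count table, and all 10 were among the 14162 genes that passed the expression filter. They were selected on values of these same libraries, namely their expression in TKT-overexpressing cells against control cells. Their fold changes are therefore a description and carry no test, and a count of members called is given beside the share of all genes called, with nothing read from it. RNA was sequenced from 3 libraries of cells overexpressing transketolase (TKT), an enzyme of the pentose phosphate pathway, and from 3 control libraries whose genotype is labelled wt. The labels name the cell line Hu7, the study's Results name Huh7, a human hepatocellular carcinoma line, and its Methods name HCCLM3, another such line, for this experiment. The Methods describe a TKT expression plasmid (pTSB02-GFP-PURO) introduced by transfection and followed by selection. The promoter that drives TKT, the plasmid of the control cells and whether the cells were a clone or a pool are not given in the sources used here. The labels call the 3 libraries of a group replicate biosamples, and the study says of its experiments in general that they were independently repeated. Whether these libraries came from separate cultures is not stated for the sequencing itself, so the p-values below measure the spread between these libraries, which may be technical.

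In the GENCODE 29 annotation of GRCh38 the subunit genes lie at chr4:102501329-102617302 (NFKB1, plus strand), chr10:102394110-102402529 (NFKB2, plus), chr11:65653596-65663094 (RELA, minus) and chr19:45001430-45038198 (RELB, plus). The feedback genes lie at chr14:35401511-35404749 (NFKBIA, minus), chr6:44258166-44265788 (NFKBIE, minus), chr6:137867188-137883312 (TNFAIP3, plus), chr11:102317450-102339403 (BIRC3, plus) and chr19:10270835-10286615 (ICAM1, plus), and IRAK1 lies at chrX:154010500-154019980 (minus). The table holds 1 count per symbol and library, so isoforms were not separated.

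NF-kappa B is a family of dimeric transcription factors built from subunits that share the Rel homology region. RELA and RELB carry an activation domain, whereas NFKB1 and NFKB2 encode the precursors p105 and p100, which are processed to p50 and p52. In resting cells the dimers are held in the cytoplasm by inhibitors of the I kappa B family, which the IKK kinases mark for degradation after a signal from receptors of the TNF, interleukin-1 or Toll-like families. Several of the genes that the released dimers switch on encode brakes of the same pathway, which makes them feedback genes. ICAM1, grouped with them here, is an induced target but not a brake. In hepatocytes the pathway is known for the response to inflammation and for protection from TNF-induced cell death.

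Sites that NF-kappa B dimers can bind follow the consensus kappa B motif, which runs GGG, a purine, 2 bases of any kind, 2 pyrimidines and CC. The 250 bases before each RefSeq start (GRCh38.p14) were searched for it on both strands. Entries matched 8 of the 10 genes, with 12 starts between them, and did not include RELB and NFKBIE. The motif was found before 7 of these 12 starts, and before 9.96% of all 35116 starts of the table and 11.7% of the 15750 starts of tested genes. By gene, 6 of the 8 had it, beside 15.3% of tested genes with an entry. These shares are a description, since the feedback genes were named for being switched on by NF-kappa B. By role, the motif was found before 3 of 7 starts of subunit genes and 3 of 4 starts of feedback genes. The windows below are shown because they hold the same motif in front of 2 subunit genes, 3 feedback genes and IRAK1. Each has 30 bases, read 5′ to 3′ on the strand of its gene, with the 10 bases of the motif in capitals. They lie at chr4:102501300-102501329 for NFKB1 (plus strand), chr10:102395674-102395703 for the third of the 3 starts of NFKB2 (plus), chr14:35404811-35404840 for NFKBIA (minus), chr6:137867194-137867223 for TNFAIP3 (plus), chr11:102317275-102317304 for BIRC3 (plus) and chrX:154019997-154020026 for IRAK1 (minus).
NFKB1: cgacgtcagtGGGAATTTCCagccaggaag
NFKB2: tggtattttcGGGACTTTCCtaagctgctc
NFKBIA: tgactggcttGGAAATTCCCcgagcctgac
TNFAIP3: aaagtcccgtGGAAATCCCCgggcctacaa
BIRC3: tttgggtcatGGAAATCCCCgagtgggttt
IRAK1: tccccggcgcGGGGCGCCCCcgtgtgaccc
In these windows the motif read in the direction of the gene in NFKB1 and NFKB2, on the opposite strand in NFKBIA, TNFAIP3 and BIRC3, and on both strands in IRAK1. TNFAIP3 and BIRC3 held the same 10 bases, and each held a second match, at 67 bases from its start for TNFAIP3 and 135 for BIRC3. Before the second start of NFKB2 there were 3 matches, of which 2 overlapped. The NFKB1 window lies before the first of 2 starts, and the second start had no match. No match was found before the first start of NFKB2, the 2 starts of RELA or the single start of ICAM1 either. A match is a run of letters and not evidence of binding, and a window without one says nothing of the factor.

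The libraries held between 30148788 and 37096156 counts. TKT itself lay between 469 and 515 CPM in the control libraries and between 9392 and 9549 CPM in the TKT libraries, where CPM is the count of a gene relative to the library total, scaled between libraries with TMM factors. FPKM, used below for levels, is the authors' value relative to library total and gene length. Markers of hepatocytes, among them albumin and alpha-fetoprotein, summed to between 5542 and 5664 FPKM in control cells and between 5756 and 5886 FPKM in TKT-overexpressing cells. Albumin and alpha-fetoprotein made up most of this sum and did not pass the test, whereas FGB, the fibrinogen beta chain, rose (log2 fold change 0.50, SE 0.03, edgeR adjusted p = 8.85e-10) and HNF4A, a transcription factor of hepatocytes, fell (log2 fold change -0.15, SE 0.04, edgeR adjusted p = 0.00720). HNF4A was not called without TKT replicate 1. Of the 6 leukocyte markers, CD68 and CD3E had at most 2 counts in any library. PTPRC and MS4A1 were not among the symbols of the count table. The 4 that were listed summed to between 88.5 and 94.1 FPKM in control cells and between 70.2 and 76.0 FPKM in TKT-overexpressing cells, nearly all of it from LYZ, the gene of lysozyme, at 87.3 ± 3.77 and 68.7 ± 2.64 FPKM (SD, n = 3 each). The 2 listed endothelial markers summed to at most 2.62 FPKM and the 4 listed markers of stellate cells or fibroblasts to at most 0.415 FPKM in any library. LYZ was called lower (log2 fold change -0.35, SE 0.05, edgeR adjusted p = 1.71e-05). CD14, also a leukocyte marker, did not pass the test (log2 fold change -0.14, SE 0.14, edgeR adjusted p = 0.606). The samples are labelled as a cell line, and the LYZ difference was not read as a share of leukocytes. Its part in the results below was not tested. A low count in this table was not read as little RNA, because POLR2A, the largest subunit of RNA polymerase II, had between 54 and 183 counts and APOB, the apolipoprotein of hepatocyte lipoproteins, between 0 and 6.

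In TKT-overexpressing cells 3 of the 4 subunits and 4 of the 5 feedback genes were called higher and IRAK1 was called lower, while NFKB1 and NFKBIE were not called. Fold changes of the subunits lay between 1.06 and 1.39 and those of the feedback genes between 1.13 and 1.58, so that the ranges of the groups overlapped. The largest differences belonged to TNFAIP3 (1.58-fold), BIRC3 (1.55-fold) and RELB (1.39-fold), and IRAK1 lay at 0.869 of its control level. On the log2 scale the median was 0.23 over the 4 subunits and 0.29 over the 5 feedback genes (0.46 over the 4 other than ICAM1), beside 0.00082 over all tested genes. In edgeR's quasi-likelihood test with Benjamini-Hochberg adjustment over all genes, 7 of the 10 genes were called higher at an adjusted p-value under 0.05, as were 5.69% of all tested genes, and 1 was called lower, as were 4.94%. No fold change reached the study's threshold of 1 on the log2 scale, which together with the adjusted p-value 0.727% of tested genes passed.

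**Figure D1:**
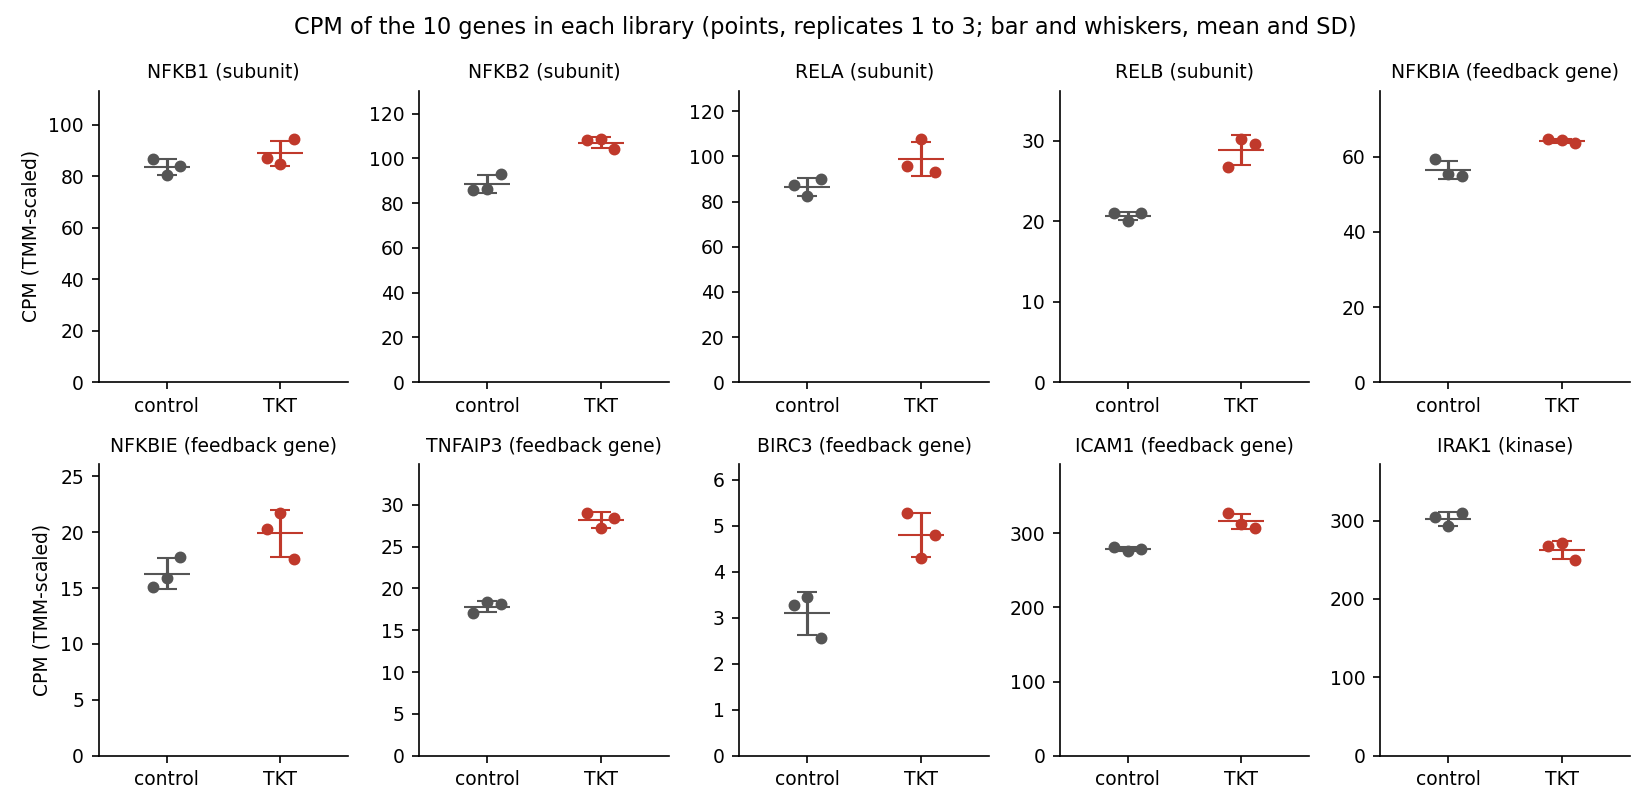
Scaled CPM (vertical axis from 0) of the 10 genes in 3 control libraries (grey) and 3 TKT libraries (red), with the mean and SD of each group. In NFKB1 and NFKBIE the points of the groups overlap, in IRAK1 the TKT points all lie lower, and in the remaining 7 genes they all lie higher.

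Among the subunits, RELB differed most. RELB, the partner of p52 in the non-canonical pathway, had 21.0, 20.05 and 21.0 CPM in the control libraries and 26.7, 30.2 and 29.6 CPM in the TKT libraries. Every TKT library lay above every control library, with a gap of 5.74 CPM between the nearest ones. Its log2 fold change was 0.48, with a standard error (SE) of 0.08. NFKB2, the precursor of p52, had 86.0, 86.3 and 93.0 CPM in control cells and 108, 109 and 104 CPM on overexpression. Here too the groups were apart, by 11.4 CPM, with a log2 fold change of 0.28 (SE 0.05).

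The subunits of the canonical pathway differed less. RELA, the p65 subunit, had 87.3, 82.3 and 90.1 CPM in control cells and 95.7, 108 and 93.3 CPM in TKT-overexpressing cells. TKT replicate 2 stood above the other 2 TKT libraries, and the nearest libraries of the groups were only 3.15 CPM apart. The log2 fold change of RELA was 0.19 (SE 0.06), and it was 0.13 without TKT replicate 2. NFKB1 had 86.6, 80.4 and 84.1 CPM in control cells and 87.4, 85.0 and 94.5 CPM on overexpression. TKT replicate 2 lay within the control range of NFKB1, and its log2 fold change of 0.09 was the smallest of the 10 (SE 0.05). It was 0.04 without TKT replicate 3.

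Of the inhibitors that hold the dimers in the cytoplasm, NFKBIA encodes I kappa B alpha. It had 59.3, 55.4 and 54.9 CPM in control cells and 64.7, 64.4 and 63.7 CPM on overexpression. The TKT libraries lay close together (SD 0.541 CPM against 2.41 in control cells) and all above the control range, with a log2 fold change of 0.18 (SE 0.05). NFKBIE, which encodes I kappa B epsilon, had 15.1, 15.9 and 17.8 CPM in control cells and 20.3, 21.7 and 17.6 CPM on overexpression. TKT replicate 3 lay below control replicate 3, so that the groups overlapped, and the log2 fold change of 0.29 had a standard error of 0.10.

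TNFAIP3 encodes A20, an enzyme that edits ubiquitin chains on signalling proteins upstream of IKK and so ends the signal. It had 17.0, 18.3 and 18.1 CPM in control cells and 29.1, 27.2 and 28.4 CPM in TKT-overexpressing cells. This was the largest difference of the 10 genes, with a log2 fold change of 0.66 (SE 0.08) and 8.86 CPM between the nearest libraries. BIRC3 encodes cIAP2, a ubiquitin ligase at TNF receptors that protects from cell death. It had 3.28, 3.46 and 2.56 CPM in control cells and 5.29, 4.31 and 4.80 CPM on overexpression. BIRC3 was the least abundant of the genes, with 86 counts in its lowest library, where counting alone gives an error of 10.8%. Its log2 fold change of 0.63 had the largest standard error, 0.19.

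ICAM1, the adhesion molecule that binds leukocyte integrins, was the most abundant of the 5 genes grouped as feedback genes. It had 282, 277 and 279 CPM in control cells and 328, 313 and 308 CPM on overexpression. The groups were 26.0 CPM apart and the log2 fold change was 0.18 (SE 0.04). IRAK1, a kinase that carries signals from interleukin-1 and Toll-like receptors towards IKK, moved the other way. It had 305, 293 and 310.2 CPM in control cells and 267, 271 and 249.8 CPM in TKT-overexpressing cells. All 3 TKT libraries lay below the control range of IRAK1, with a log2 fold change of -0.20 (SE 0.04).

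Counted over the 10 genes, 7 had every TKT library above every control library and 1, IRAK1, had every TKT library below. Over all tested genes these shares were 14.1% and 13.9%. The spread between replicates was small for the abundant members: the biological coefficient of variation was 0.0427 for ICAM1 and 0.0450 for IRAK1, against 0.195 for BIRC3 and 0.116 for NFKBIE. In the plot of log2 fold changes by role, RELB among the subunits lay above NFKBIA, NFKBIE and ICAM1 among the feedback genes.

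**Figure D2:**
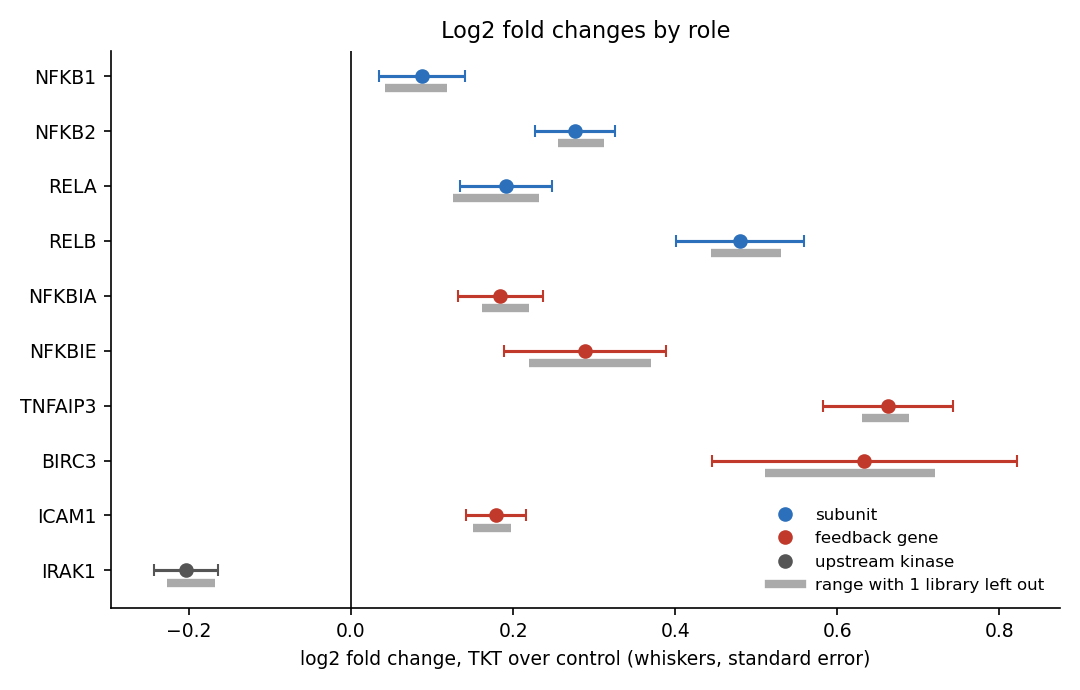
Log2 fold changes of the 10 genes, TKT over control (horizontal axis), with standard errors as whiskers, coloured by role, and in grey the range over fits that each left out 1 of the 6 libraries. TNFAIP3, BIRC3 and RELB lie farthest to the right, and IRAK1 is the only gene left of 0.

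The direction of each gene was the same in all 14 alternative fits, which changed the tool, the scaling, the filter, the unit or the libraries. These fits reuse the libraries on which the genes were chosen. Their calls describe dependence on the processing and on single libraries, and add no support. NFKB2, RELB, TNFAIP3, ICAM1 and IRAK1 were also called in all 14. RELA was in 7, BIRC3 in 7, NFKBIA in 8, NFKBIE in 2 and NFKB1 in 0 of them. Without TKT overexpression replicate 1 the number of members called higher was 4 in place of 7, RELA, NFKBIA and BIRC3 no longer being among them, and the number of all genes called was 791 in place of 1505. The call of RELA was also lost without control replicate 1 or 2 or TKT replicate 2. That of NFKBIA was also lost without control replicate 2 or 3 or TKT replicate 2 or 3, and that of BIRC3 without control replicate 1 or 3 or TKT replicate 3. NFKBIE was called without TKT replicate 3. Genes on the opposite strand overlap TNFAIP3 and ICAM1 in GENCODE 29. At RELA such an overlap spans only the bases from 65663086 to 65663094 of chromosome 11. The strand setting of the counting is not given in the sources used here, so reads of such partners cannot be told apart in the shared stretches.

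Levels were compared between the genes per length, in FPKM of the control libraries. ICAM1 (80.6 ± 0.407 FPKM, SD, n = 3) and IRAK1 (70.6 ± 1.54 FPKM) stood highest, and their ranges did not overlap. NFKBIA (16.6 ± 0.670 FPKM), RELA (15.8 ± 0.600 FPKM) and NFKB2 (15.7 ± 0.639 FPKM) followed, and these 3 did not differ beyond their ranges. RELB (6.86 ± 0.121 FPKM) and NFKBIE (6.27 ± 0.518 FPKM) overlapped as well. Below them came NFKB1 (5.31 ± 0.161 FPKM), TNFAIP3 (2.75 ± 0.123 FPKM) and BIRC3 (0.412 ± 0.0653 FPKM), each with a range of its own. The order thus mixed subunits and feedback genes, and the genes with the largest fold changes on overexpression, TNFAIP3 and BIRC3, were those with the lowest levels.

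The place of NFKB1 in this order rests on the gene length. The deposited counts and FPKM together imply a length of 15734 bases for NFKB1, whereas its exons in GENCODE 29 cover 6257 bases and its longest coding transcript has 4085. The implied length also exceeded the exons for NFKBIA (3406 against 2373 bases), NFKB2 (5602 against 4484) and TNFAIP3 (6465 against 5051), by less than for NFKB1. For RELA it was 5476 bases against 5464. With CPM divided by the length of the longest coding transcript, NFKB1 ranked 6 in place of 8, at 20.5 ± 0.764 CPM per kilobase (SD, n = 3), above RELB at 9.01 ± 0.234 and NFKBIE at 6.30 ± 0.536. The other genes kept their order. On this scale NFKBIA, at 36.3 ± 1.54, stood apart from RELA (27.2 ± 1.25) and NFKB2 (25.9 ± 1.16). Its nearness to them in FPKM thus also depends on the gene length.

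**Figure D3:**
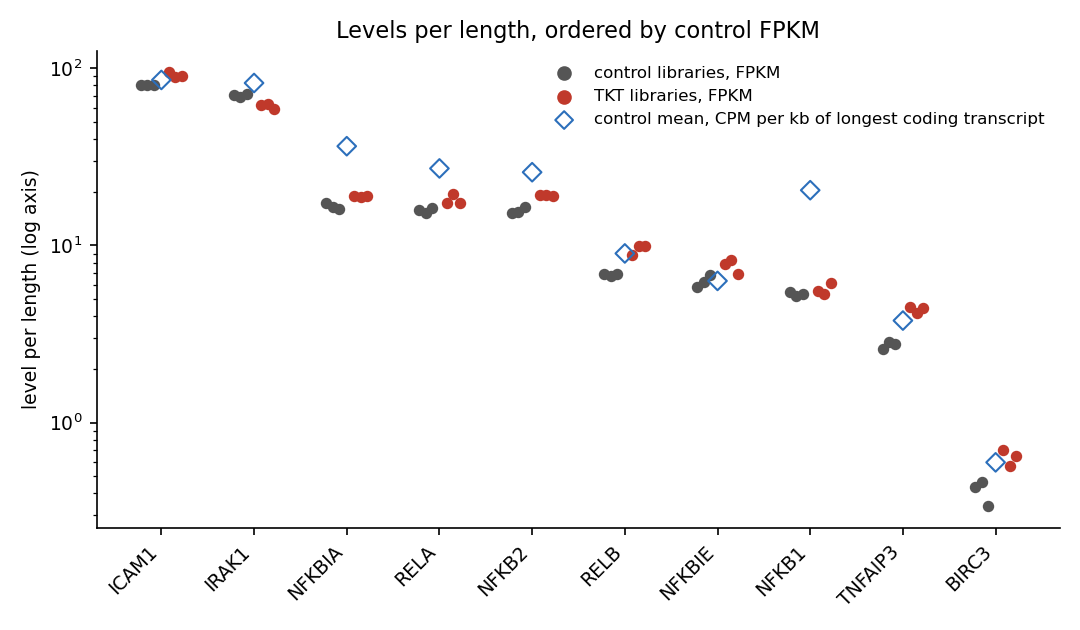
Levels per length on a log axis, genes ordered by control FPKM, with the 3 control libraries in grey and the 3 TKT libraries in red. Open diamonds give the control mean as CPM per kilobase of the longest coding transcript, and NFKB1 is the gene for which the 2 measures lie farthest apart (5.31 FPKM against 20.5 CPM per kilobase).

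Ratios of FPKM inside a library do not depend on how libraries are scaled. Those given first set genes of I kappa B inhibitors against subunit genes. The 4 subunits include NFKB1 and NFKB2, which encode precursors, so this is a ratio of RNA and not of inhibitor to active dimer. NFKBIA and NFKBIE together amounted to 0.531, 0.531 and 0.507 of the summed FPKM of the 4 subunits in control cells and to 0.524, 0.501 and 0.495 in TKT-overexpressing cells. These ranges overlapped, and the mean on overexpression was 0.969 of the control mean. NFKBIA over RELA was 1.05 ± 0.0626 in control cells and 1.05 ± 0.0761 on overexpression (SD, n = 3 each). With CPM per kilobase of the longest coding transcript the means were 1.34 and 1.33.

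Other ratios were apart. RELB over RELA was 0.437, 0.444 and 0.424 in control cells and 0.508, 0.511 and 0.577 on overexpression, so every TKT library had more RELB per RELA than every control library. TNFAIP3 over NFKBIA was 0.151, 0.174 and 0.174 in control cells and 0.236, 0.223 and 0.235 on overexpression, again with no overlap. With CPM per kilobase of the longest coding transcript, the mean of TNFAIP3 over NFKBIA was 0.104 in control cells and 0.144 on overexpression. NFKB2 over NFKB1 was 2.97 ± 0.165 in control cells and 3.39 ± 0.256 on overexpression, with overlapping ranges, and 1.26 and 1.44 with CPM per kilobase. The size of each of these ratios thus depends on the gene lengths, while its change between the groups (1.39 for TNFAIP3 over NFKBIA, 1.14 for NFKB2 over NFKB1) does not. Like the fold changes, these ratios come from the comparison on which the genes were chosen and are given without a test.

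**Figure D4:**
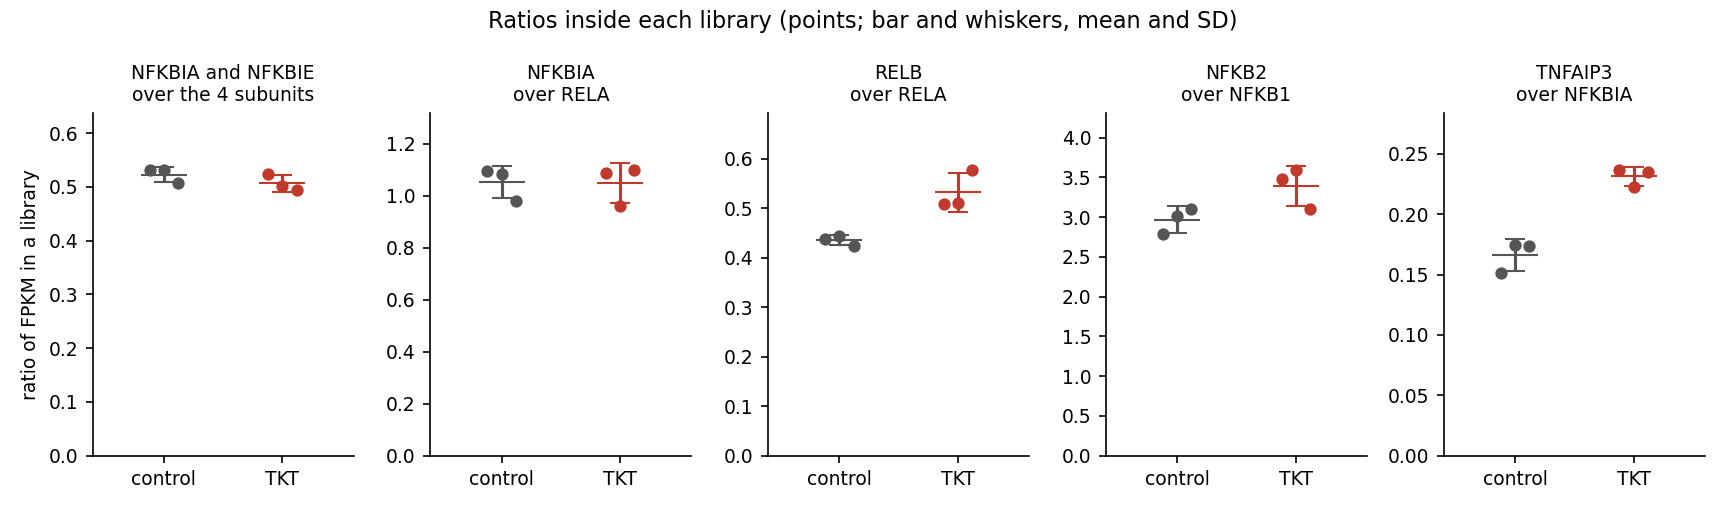
Ratios of FPKM inside each of the 3 control (grey) and 3 TKT (red) libraries, vertical axes from 0, with mean and SD. The ratios of RELB to RELA and of TNFAIP3 to NFKBIA do not overlap between the groups, and the ratio of both inhibitors to the 4 subunits does.

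The rest of the pathway was taken from 96 further genes in 5 role lists, written with earlier results of these data known. Of these, 74 were tested, of which 14 were called higher and 0 lower in edgeR's quasi-likelihood test at an adjusted p-value under 0.05, beside 5.69% higher and 4.94% lower over all tested genes. At an unadjusted p-value under 0.05 there were 21 higher and 3 lower, and DESeq2 called 14 higher and 0 lower. RBCK1 was called lower without control replicate 2 (edgeR adjusted p = 0.0464) and TNFRSF1A without TKT replicate 2 (0.0319). The median log2 fold change of the 74 genes was 0.10, and 57 of them lay above 0. Most of the calls were in the list of target genes.

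Of the other subunit and the other members of the I kappa B family, 4 were tested and 2 were called, both higher. Over all tested genes 5.69% were called higher. NFKBIZ, an inducible nuclear member of the family, had a log2 fold change of 0.29 (SE 0.06, edgeR adjusted p = 0.00376), with 46.5 ± 3.60 CPM in control cells and 56.8 ± 3.02 CPM on overexpression (SD, n = 3 per group). Its adjusted p was under 0.05 in 12 of 14 alternatives, with a highest value of 0.0736, and the call was lost in both limma fits on FPKM. BCL3, a nuclear partner of p50 and p52 dimers, had one of 0.20 (SE 0.05, edgeR adjusted p = 0.0154). The adjusted p of BCL3 was under 0.05 in 11 of 14 alternatives, and the highest value was 0.0972. Its call was lost without control replicate 3 or TKT replicate 1. REL, the remaining subunit, had a log2 fold change of -0.08 (SE 0.16, edgeR adjusted p = 0.816), and its sign turned without control replicate 2 or TKT replicate 2. NFKBIB, the gene of I kappa B beta, had at most 3 counts in any library and was not tested.

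Of the kinase and ubiquitin complexes between receptor and inhibitor, 18 genes were tested and 2 were called, both higher. That is 11.1%, beside 5.69% called higher over all tested genes. TAB2, an adaptor that brings the kinase TAK1 to ubiquitin chains, had a log2 fold change of 0.21 (SE 0.06, edgeR adjusted p = 0.0191). IRAK2, a relative of IRAK1 in the same receptor complexes, had one of 0.22 (SE 0.06, edgeR adjusted p = 0.0337), opposite in sign to IRAK1. Its level was 42.6 ± 3.14 CPM in control cells and 49.5 ± 3.45 CPM on overexpression (SD, n = 3 per group). For both TAB2 and IRAK2 the adjusted p was under 0.05 in only 7 of 14 alternatives, with highest values of 0.0835 and 0.180. The call of TAB2 was lost without control replicate 1 or 3 or TKT replicate 2 or 3, and that of IRAK2 without control replicate 2 or 3 or TKT replicate 1 or 2. The IKK subunits did not pass the test, with log2 fold changes of 0.02 for CHUK (edgeR adjusted p = 0.839), 0.09 for IKBKB (0.575) and 0.15 for IKBKG (0.599). The sign turned for CHUK without control replicate 1 and for IKBKG without TKT replicate 3. The range over the 18 genes was from -0.13 to 0.66.

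Among 18 tested receptors and adaptors, 1 was called, and it was higher. This share of 5.56% lay beside 5.69% called higher over all tested genes. TNFRSF12A, the receptor of the cytokine TWEAK, had a log2 fold change of 0.37 (SE 0.07, edgeR adjusted p = 0.00867), with 136 ± 14.96 CPM in control cells and 176 ± 7.69 CPM on overexpression (SD, n = 3 per group). Of the 12 tested brakes outside the 10 genes, OTUD7B was the only one called (8.33%). Shares of so few genes, near that of all genes, were not read as a result about these lists. OTUD7B, a deubiquitinating enzyme related to A20, had a log2 fold change of 0.34 (SE 0.06, edgeR adjusted p = 7.40e-04). Its call was lost in both limma fits on FPKM, where the highest adjusted p was 0.0621. CYLD, another deubiquitinating enzyme of the pathway, had 0.22 (SE 0.18, edgeR adjusted p = 0.517).

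Of the 22 tested target genes, 8 were called, all higher (36.4%, beside 5.69% over all tested genes). The median log2 fold change of the 22 was 0.30. Chemokine genes made up 5 of these 8 calls among 6 tested. CXCL8, which encodes interleukin-8, had 57.3 ± 1.82 CPM in control cells and 128 ± 6.10 CPM on overexpression (SD, n = 3 per group), so that the log2 fold change was 1.15 (SE 0.05, edgeR adjusted p = 7.25e-13). CXCL2, CXCL3 and CXCL1 had log2 fold changes of 1.10, 0.83 and 0.70 (standard errors 0.10, 0.12 and 0.05), with edgeR adjusted p-values of 6.33e-08, 8.94e-05 and 6.01e-10. CXCL1, CXCL2 and CXCL3 are close paralogs, and how the counting split reads between them is uncertain. CCL20, the remaining called chemokine gene, had a smaller log2 fold change of 0.30 (SE 0.04, edgeR adjusted p = 1.21e-05). CXCL10 was not called (log2 fold change 0.38, SE 0.19, edgeR adjusted p = 0.241).

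Without the chemokines, 3 of 16 tested target genes were called, all higher (18.8%, beside 5.69% over all tested genes). The median log2 fold change of the 16 was 0.12. GADD45B, a stress-inducible gene that restrains JNK signalling, had 20.004 ± 1.502 CPM in control cells and 33.4 ± 1.27 CPM on overexpression (SD, n = 3 per group), so that the log2 fold change was 0.74 (SE 0.08, edgeR adjusted p = 9.63e-07). The others, named here after their values were seen, were SOD2, the mitochondrial superoxide dismutase, and CSF1, the macrophage colony-stimulating factor. SOD2 had a log2 fold change of 0.30 (SE 0.04, edgeR adjusted p = 5.84e-06) and CSF1 one of 0.35 (SE 0.04, edgeR adjusted p = 1.24e-05). BCL2L1 and CFLAR, targets that protect from cell death, had 0.05 and 0.04, with edgeR adjusted p-values of 0.485 and 0.793, and the sign of CFLAR turned without TKT replicate 1. SAA1, an acute-phase gene and the highest point of the plot of pathway genes, had 2, 9 and 83 counts in the control libraries and 96, 184 and 184 in the TKT libraries. With this spread its log2 fold change of 2.29 had a standard error of 1.18 and did not pass the test (edgeR adjusted p = 0.363). Without control replicate 3 it was 4.69 and passed (edgeR adjusted p = 0.00221). The smallest called log2 fold change of a target was the 0.30 of SOD2, above those of NFKBIA, RELA, NFKB2 and ICAM1.

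The kappa B motif was counted in front of these genes in the same way. Of the 17 starts of 12 called pathway genes with an entry, 8 held it in the 250 bases before the start, a share of 47.1%. Of the 79 starts of 50 other tested pathway genes, 15 held it, a share of 19.0%. These shares are a description, since the target list was written from genes known to respond to NF-kappa B.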

How the data were processed

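Total RNA of 3 control and 3 TKT-overexpression libraries was sequenced as paired-end reads. The deposited counts per gene symbol were made by the authors, who trimmed reads with fastp 0.22.0, aligned them with HISAT2 2.1.0 (hg38 in the processing notes) and counted with featureCounts. The FPKM values were also computed by the authors from these libraries. The annotation, gene lengths, strand setting and handling of multi-mapping reads are not given in the sources used here. Columns were matched to the labels by group and number, and 0 columns of libraries were left unused.

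Counts were filtered with filterByExpr (minimum count 10), scaled with TMM factors and tested with edgeR 4.0.16 (quasi-likelihood, R 4.3.3) over 14162 genes with Benjamini-Hochberg adjustment. DESeq2 1.42.0, limma 3.58.1 on log2(FPKM + 1) and log2(FPKM + 0.1), other scalings and filters, a replicate block and fits without each library were the alternatives. The script of the test was tested on simulated data. Levels between genes were compared in FPKM. Exon and transcript lengths and overlapping genes came from GENCODE 29 (GRCh38), and promoters from RefSeq (GRCh38.p14). The CPM per kilobase, the median without ICAM1 and the ratios of single genes without each library are additions made with the data already seen.

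The 10 genes and all lists were chosen with earlier results of these data known. Named outside them were, from each role list, the called genes with the largest absolute log2 fold change, at most 5, and, for the 3 members with the largest change, the 3 genes of mean log2 CPM of at least 1 with the highest Pearson correlation over the 6 libraries. Other genes, named after their values were seen, were the IKK subunits, REL, CYLD, BCL2L1, CFLAR, SAA1, SOD2, CSF1, CCL20, CXCL10, RBCK1, TNFRSF1A, GADD45A, PARP1, TRIM25 and the genes of low count.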

Additional observations from a re-analysis of the deposited data

How the results depend on the processing

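In place of 1505 genes, 697 were called with a replicate block, 752 with limma on log2(FPKM + 1), 790 with limma on log2(FPKM + 0.1), and between 791 and 1586 without single libraries (791 without TKT overexpression replicate 1, 881 without control replicate 1). In place of 103 genes that also passed the fold threshold, there were 63 with DESeq2, 160 without a filter, 67 with the block, 15 and 68 with limma on log2(FPKM + 1) and log2(FPKM + 0.1). The study, which names DESeq2 and the same thresholds, reported more such genes than any of these fits gave. The members called higher were 4 with the block and between 4 and 6 without single libraries, in place of 7. The pathway genes called lower were between 0 and 1 without single libraries. The median log2 fold change of the feedback genes was 0.22 with limma on log2(FPKM + 1), in place of 0.29, and between 0.22 and 0.37 without single libraries. It was 0.46 without ICAM1, an alternative added after the data were seen. NFKBIA over RELA gave a ratio of TKT to control of 0.997, in place of 0.969 for both inhibitors over the 4 subunits. The cause of these differences was not tested. No called gene whose log2 fold change was followed through these fits changed its sign. LYZ, CD14, CCL20, CXCL10, MCL1, CCN2 and CPEB4 were not followed in this way. Among genes not called, the sign depended on single libraries for REL (between -0.210 and 0.0589 without 1 library), CHUK (between -0.0135 and 0.0888), IKBKG (between -0.00227 and 0.279) and CFLAR (between -0.0358 and 0.0933). Over all genes, 806 were called higher and 699 lower, but 737 and 775 with DESeq2, and the median log2 fold change lay between -0.00193 and 0.0219 over the alternatives. Same-numbered libraries did not deviate together (correlations of -0.00192, -0.0252 and 0.0156), and not every library correlated best with its own number, so the numbers were not read as a pairing. Depth limited BIRC3 most, with 86 counts in its lowest library.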

Other observations

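The pathway column of the deposited table lists 84 genes under NF-kappa B signalling in KEGG, among them 9 of the 10 genes (NFKBIE was not), and was used after the data were seen. Of the 75 others, 58 were tested, and 7 were called higher (12.1%) and 2 lower (3.45%) in edgeR's quasi-likelihood test, beside 5.69% and 4.94% of all genes. Of the 7 called higher, 6 were already counted in the role lists above (CXCL1, CXCL2, CXCL3, CXCL8, GADD45B and TAB2), so this list adds only GADD45A to them. The median log2 fold change of the 58 was 0.02. GADD45A, a stress-inducible gene of growth arrest, went from 28.6 ± 2.88 to 51.7 ± 3.13 CPM (SD, n = 3 each), with a log2 fold change of 0.85 (standard error 0.07, edgeR adjusted p = 4.32e-08). The genes called lower were PARP1, a DNA damage sensor (log2 fold change -0.19, standard error 0.03, edgeR adjusted p = 8.56e-04), and TRIM25, a ubiquitin ligase of the RIG-I pathway (-0.20, standard error 0.05, edgeR adjusted p = 0.00956). The call of TRIM25 was lost in 4 of 14 alternatives, among them the fit without TKT replicate 1.

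Over the 6 libraries, the log2 CPM of 11233 genes was set beside that of the members with the largest changes. The genes most like TNFAIP3 were UGDH, GCLC and SOD2 (Pearson r of 0.999, 0.999 and 0.998), those most like BIRC3 were PTPRF, ZBTB2 and SPTAN1 (0.998, 0.995 and 0.994), and those most like RELB were MCL1, CCN2 and CPEB4 (0.997, 0.995 and 0.994). The libraries fall into 2 groups, so these values follow the difference between the groups as well as the order within them. They were picked as the highest among 11233 genes over only 6 libraries, and r does not measure the size of a change. Log2 fold changes were 0.08 for MCL1, 0.22 for CCN2 and 0.65 for CPEB4, beside 0.48 for RELB.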
